A study of Homo sapiens with 12 samples.

Results

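Transcripts of TC71 cells, an established Ewing sarcoma line, were compared between cells given either of 2 opposite reagents against the microRNA miR-130b and cells given a scramble control. The comparison takes every array of the series, 12 of 12: 4 arrays of cells expressing a miR-130b mimic, 4 of cells expressing a miR-130b anti-miR, which inhibits the microRNA, and 4 of cells expressing the scramble sequence, all at 48 h. The 8 reagent arrays were set against the 4 scramble arrays with the mean of each reagent weighted equally, so the combined value of a gene is the average of the reagents' differences from scramble, and it can come from both or mostly from 1 of them. The labels describe the mimic, the anti-miR and the scramble only by those names, so the kind of inhibitor and the way it was delivered are not given in the sources used here, and no untreated culture was analysed here. Nothing says that the replicate arrays came from separate cultures, so p-values measure only the spread between these samples, which may be technical. Both reagents were compared with the same scramble arrays, so a change common to the reagents and a property of the scramble cultures cannot be told apart.

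A microRNA silences transcripts that carry matches to its seed, the bases near its 5′ end that pair first with a target. A mimic adds copies of the microRNA and so lowers its targets, while an anti-miR pairs with the microRNA itself and frees them. By this mechanism a target of miR-130b moves in opposite directions under the reagents, and where those changes are of like size the combined contrast leaves it near 0. The series is about a loop from miR-130b through ARHGAP1 and the GTPase CDC42 to the kinase PAK1 and the transcription factor AP-1. The sequences shown first are those of the microRNA that both reagents address, in RefSeq's GRCh38.p14 copy, with the seed (bases 2 to 8) in capitals. The arm printed first lies at chr22:21653354-21653375 and the other at chr22:21653316-21653336, both on the plus strand.
hsa-miR-130b-3p: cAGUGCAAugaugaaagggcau
hsa-miR-130b-5p: aCUCUUUCccuguugcacuac

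The 3 groups were close in the number of probes detected. Between 19081 and 20326 of the 47322 probes were detected on the mimic arrays, 19572 to 20544 on the anti-miR arrays and 19008 to 19937 on the scramble arrays, and the reagent arrays exceeded scramble by 299 probes (two-sided exact permutation test over arrays, p = 0.321). Median raw intensity was 84.5 to 87.6 on the mimic arrays, 72 to 82.5 on the anti-miR arrays and 85.5 to 88.8 on the scramble arrays (reagents minus scramble -5.21, two-sided exact permutation p = 0.0687). The first 3 principal components carried 30.1%, 16.9% and 10.7% of the variance, and none of them set the 8 reagent arrays apart from the 4 scramble arrays. Of 10 Ewing sarcoma markers 9 were measured, CD99, NKX2-2 and CCND1 among them, their combined changes lay between -0.17 and 0.19, and 0 were called. The identity of the line itself was not tested. Of 6 epithelial markers 2 were measured, KRT8 on 12 arrays (combined change 0.50, adjusted p = 0.0848) and EPCAM on 10 (-0.18, adjusted p = 0.471), while KRT18 was detected on 1 array and KRT19, CDH1 and KRT5 on 0. The array means of the measured epithelial markers were 5.77 to 6.13 in mimic cells, 5.33 to 5.84 in anti-miR cells and 5.52 to 5.73 in scramble cells, so they were dim and higher on every mimic array than on any scramble array, and their part in the results was not tested. Of 6 blood cell markers 1 was measured, CD14 on 9 arrays (0.08, adjusted p = 0.743), with LYZ detected on 2 arrays and PTPRC, CD3E and HBB on 0. The 5 endothelial markers, PECAM1 and VWF among them, were detected on 0 arrays. Of the fibroblast markers 7 of 9 were measured, with array means of 7.47 to 7.84 in mimic cells, 7.44 to 7.62 in anti-miR cells and 7.47 to 7.64 in scramble cells, and 0 of them were called. PDGFRB (scramble mean 10.07) and COL3A1 (9.45) were detected on 12 arrays. The combined changes of the fibroblast markers ran from -0.33 in FAP (adjusted p = 0.135) to 0.37 in THY1 (adjusted p = 0.0557), so the array means average opposed changes. Their part in the results was not tested. With 4 arrays per group, precision is limited throughout.

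Both reagents together moved 417 of 11835 genes against scramble, 3.52% of those tested: 171 were higher (1.44%) and 246 lower (2.08%) at an adjusted p under 0.05 from limma, a linear model over all genes with 1 mean per group and a Benjamini-Hochberg adjustment. The changes were small. The median size among called genes was 0.41 on the log2 scale, and 0 of them reached a 2-fold change. In RNA of a whole culture, fewer cells with a transcript and less of it per cell cannot be told apart. The smallest adjusted p was 0.0170, and 2809 genes had an unadjusted p under 0.05. At the edge of the threshold, SEC61A1 (0.44, adjusted p = 0.0497) and EFEMP2 (-0.40, 0.0497) lay just inside, and SNORD32A (0.43, 0.05001) and ZKSCAN1 (-0.50, 0.0505) just outside. The same fit called 1777 genes (15%) between mimic and anti-miR, 926 of them higher (7.82%) and 851 lower (7.19%) with the mimic, 1919 (16.2%) between mimic and scramble and 15 (0.127%) between anti-miR and scramble.

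The number of calls depended on single arrays. With scramble array 2 left out, limma called 0 genes, although 2244 still had an unadjusted p under 0.05. Without scramble array 1 it called 34 genes, without array 3 it called 10, and without array 4 it called 702. Leaving out a mimic array gave 106 to 565 calls, and leaving out an anti-miR array gave 75 to 869. Of 78 called genes, which are those named in the text apart from SEC61A1, EFEMP2 and BCL6, 0 kept their call in every such fit, and 0 changed sign in any of them.

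**Figure D1:**
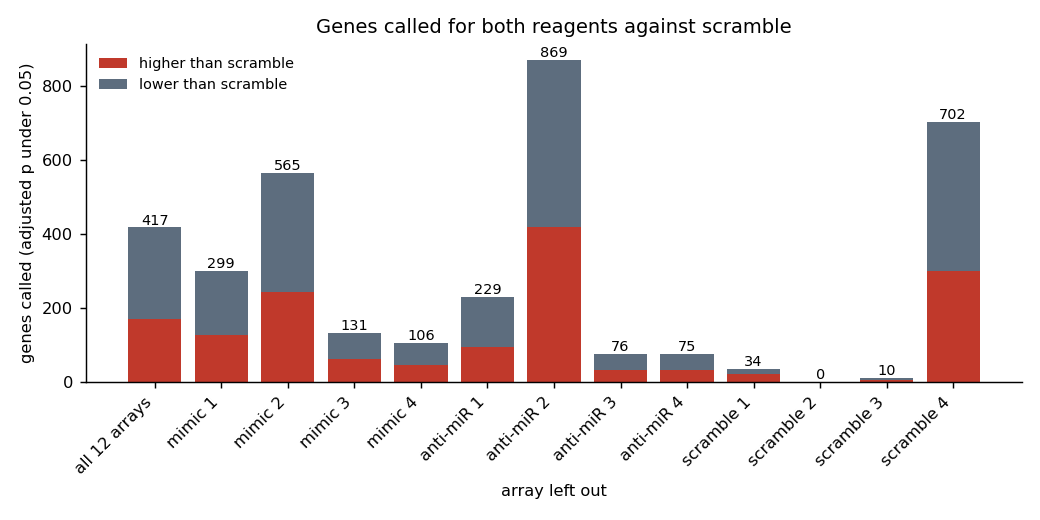
Number of genes called for both reagents against scramble (y axis) with all 12 arrays and with each array left out in turn (x axis); red is higher and grey lower than scramble. The count is 417 with all arrays, 0 without scramble array 2 and 869 without anti-miR array 2.

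The estimates of the combined change and of the difference between the reagents are uncorrelated in this design, and the second uses no scramble array. Their tests are not independent, since both use 1 spread per gene that is pooled over the 3 groups. A gene with a small spread therefore tends to pass both. Among the 417 called genes, 151 (36.2%, against 15% of all genes) also differed between mimic and anti-miR. In those 151 genes the median size was 0.67 under the mimic and 0.17 under the anti-miR, and in the other 266 called genes it was 0.48 under the mimic and 0.36 under the anti-miR. A stricter view asks for no overlap, that is, all 8 reagent arrays on 1 side of all 4 scramble arrays. Of all genes, 260 (2.2%) met this, 111 with the reagents above (0.938%) and 149 below (1.26%), and 144 of these (1.22%) were also called, 58 higher and 86 lower. Of the 144, 17 (11.8%) were called different between mimic and anti-miR, a share that the choice itself lowers, since both reagents must lie past scramble. Their median change was 0.46 under the mimic and 0.38 under the anti-miR for the higher genes, and -0.46 and -0.36 for the lower ones.

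**Figure D2:**
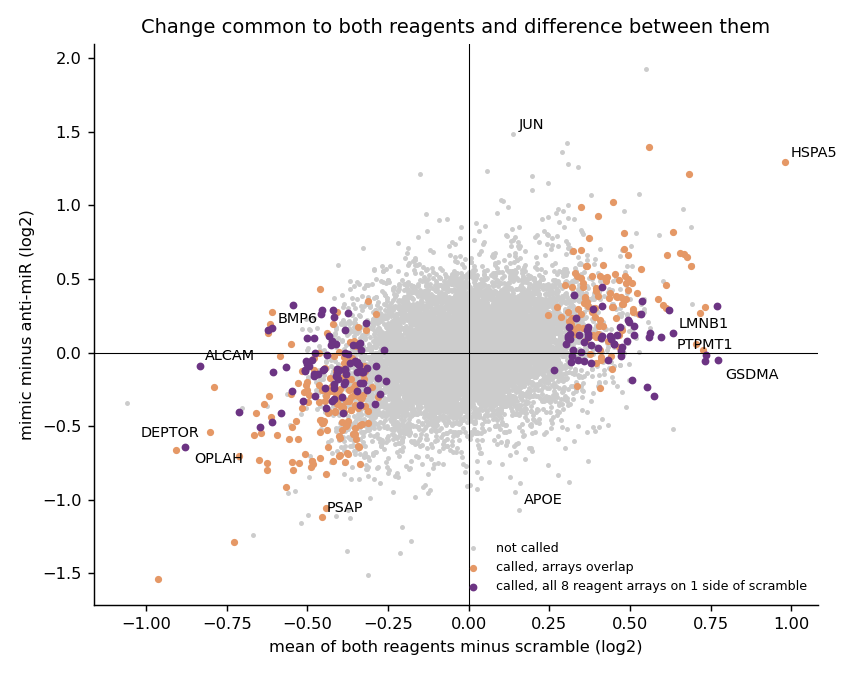
Each point is a gene, with the mean of both reagents minus scramble on the x axis and mimic minus anti-miR on the y axis, both log2. Purple points (144 genes) are called and do not overlap with scramble, orange points (273 genes) are called with overlapping arrays, and JUN and APOE lie near 0 on the x axis and far from it on the y axis.

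Among the genes that rose without overlap, some serve mitochondria, the nuclear lamina or chromatin. PTPMT1, a mitochondrial phosphatase needed to make cardiolipin, had log2 intensities of 10.85, 10.67, 10.95 and 11.10 on the mimic arrays and 10.94, 10.85, 11.02 and 11.01 on the anti-miR arrays, against 10.21, 10.01, 9.99 and 10.55 on the scramble arrays. The lowest reagent array stood above the highest scramble array. It was higher by 0.73 ± 0.11 (SE, 4 arrays per group; 1.66-fold; limma adjusted p = 0.017), and mimic and anti-miR differed by -0.06 ± 0.12 (95% interval -0.32 to 0.20).

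LMNB1 encodes lamin B1, a filament protein of the nuclear lamina that dividing cells keep and senescent cells lose. Its values were 8.21, 8.34, 8.43 and 8.31 with the mimic and 8.12, 8.23, 8.29 and 8.12 with the anti-miR, against 7.46, 7.37, 7.91 and 7.76 with scramble. All 8 reagent arrays lay above 8 and all scramble arrays below it, a difference of 0.63 ± 0.10 (adjusted p = 0.017), with mimic minus anti-miR at 0.13 ± 0.11. PDF, the mitochondrial peptide deformylase that trims newly made mitochondrial proteins, had 5.69, 6.14, 6.48 and 6.19 on mimic arrays and 6.02, 5.86, 6.39 and 6.30 on anti-miR arrays, against 5.58, 5.51, 5.06 and 5.45 on scramble arrays. Mimic array 1 came closest to scramble, and the combined change was 0.73 ± 0.14 (adjusted p = 0.025). The PDF probe was detected on 4 mimic, 4 anti-miR and 3 scramble arrays. It passed the detection filter only through the reagent arrays, so its test is not read as support.

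TADA2B, an adaptor of the SAGA histone acetyltransferase, had 6.50, 6.56, 7.13 and 6.67 in mimic cells and 6.25, 6.41, 6.72 and 6.23 in anti-miR cells, against 5.75, 6.11, 5.43 and 5.87 in scramble cells (0.77 ± 0.14, adjusted p = 0.025). TNS1, or tensin 1, ties integrins to actin at focal adhesions. Its arrays read 6.62, 6.64, 6.80 and 6.93 for the mimic and 6.32, 6.54, 6.41 and 6.57 for the anti-miR, against 5.82, 5.90, 6.20 and 6.01 for scramble, and the 3 groups did not overlap. The combined change of TNS1 was 0.62 ± 0.09 (adjusted p = 0.017), and its difference between the reagents was 0.29 ± 0.10 (adjusted p = 0.0756).

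GSDMA, a member of the gasdermin family of pore-forming proteins, was detected on all 8 reagent arrays and was not well above background on any scramble array. Its signal was 5.49, 5.62, 6.22 and 6.16 in mimic cells and 5.60, 5.79, 6.23 and 6.09 in anti-miR cells, and the measured scramble values were 4.93, 5.14, 5.21 and 5.24. Set against the lowest signal detected on each scramble array, GSDMA was at least 1.62-fold higher with the reagents. Its probe passed the detection filter only through the reagent arrays, so its test is not read as support. The receptor gene IGF1R, whose ligand drives growth of Ewing sarcoma cells, and the zinc finger gene ZNF804A were likewise undetected on the scramble arrays. Their bounds were low, at least 1.15-fold for IGF1R and at least 1.23-fold for ZNF804A, on probes close to background throughout.

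The further rises of this kind were smaller. GRWD1, a histone-binding protein of large ribosomal subunit assembly, rose by 0.49 ± 0.11 (adjusted p = 0.0357), and NOL10, a nucleolar protein of pre-rRNA processing, by 0.55 ± 0.14 (adjusted p = 0.0434). ZNF512B, a zinc finger gene, changed by 0.59 ± 0.12. CHMP6, a subunit of the ESCRT-III complex that cuts membrane necks, read 0.51 ± 0.09 on a dim probe. The CHMP6 probe was detected on 4 mimic, 4 anti-miR and 1 scramble arrays. GRIK1, a kainate-type glutamate receptor subunit, read 0.56 ± 0.10 on a dim probe detected on 4 mimic, 4 anti-miR and 2 scramble arrays. Its other detected probe read 0.50. The probes of CHMP6 and GRIK1 passed the detection filter only through the reagent arrays, so their tests are not read as support. ANKRD16, an ankyrin repeat protein, changed by 0.47 ± 0.08, but its other 2 detected probes read -0.05 and 0.13, so its probes disagree. Over these 14 rises mimic minus anti-miR ran from -0.29 in ZNF804A to 0.31 in TADA2B, a description only, since the genes were chosen for a change under both reagents.

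The genes that fell without overlap included cell surface, signalling and metabolic genes. ALCAM, the adhesion molecule also known as CD166, had 8.01, 7.93, 7.42 and 7.85 on the mimic arrays and 8.0, 8.37, 7.53 and 7.68 on the anti-miR arrays, against 8.96, 8.78, 8.62 and 8.37 on the scramble arrays. Anti-miR array 2 and scramble array 4 nearly touched, and the combined change was -0.83 ± 0.16 (1.78-fold lower, adjusted p = 0.025). BMP6, a ligand of the bone morphogenetic protein family, had 7.93, 7.58, 7.45 and 7.87 in mimic cells and 7.60, 7.42, 7.56 and 7.59 in anti-miR cells, against 8.24, 8.35, 8.14 and 8.22 in scramble cells. The mimic arrays spread most and none of them reached scramble. BMP6 fell by 0.61 ± 0.09 (adjusted p = 0.017), with mimic minus anti-miR at 0.17 ± 0.11.

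OPLAH, the 5-oxoprolinase of glutathione turnover, had 8.52, 8.91, 8.43 and 8.67 with the mimic and 9.30, 9.32, 9.11 and 9.36 with the anti-miR, against 10.09, 10.04, 9.73 and 9.46 with scramble. The reagents lay on the same side of scramble but not level with each other: the combined change was -0.88 ± 0.12 (adjusted p = 0.017) and mimic minus anti-miR was -0.64 ± 0.14 (adjusted p = 0.00857). KLF9, a Krüppel-like transcription factor that glucocorticoids and thyroid hormone induce, read 8.24, 8.22, 7.57 and 8.06 in mimic cells and 8.32, 8.33, 7.89 and 8.08 in anti-miR cells, against 9.12, 8.61, 8.61 and 8.45 in scramble cells. Its change was -0.61 ± 0.14 (adjusted p = 0.0396), and scramble array 1 was the highest of its group.

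BBS2 belongs to the BBSome, the coat complex that carries membrane proteins into and out of cilia. Its log2 intensities were 8.16, 8.18, 8.05 and 7.99 on mimic arrays and 8.05, 8.16, 7.84 and 7.94 on anti-miR arrays, against 8.63, 8.52, 8.61 and 8.42 on scramble arrays, with a clear gap between them. BBS2 changed by -0.50 ± 0.08 (adjusted p = 0.017), and its second probe read -0.47 with all reagent arrays below scramble there too. TLR5, the receptor for bacterial flagellin, had 7.22, 6.99, 6.89 and 6.70 with the mimic and 7.11, 7.22, 6.76 and 7.12 with the anti-miR, against 7.67, 7.53, 7.59 and 7.48 with scramble (-0.57 ± 0.10, adjusted p = 0.025).

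The remaining falls of this kind lay between -0.48 and -0.71. ANKRD44, a regulatory subunit of protein phosphatase 6, changed by -0.71 ± 0.13, and ELOVL3, a fatty acid elongase, by -0.62 ± 0.12. PDE5A, the phosphodiesterase that breaks down cyclic GMP, changed by -0.50 ± 0.11, and was detected on 2 mimic and 2 anti-miR arrays against 4 scramble arrays. MAOA, the mitochondrial monoamine oxidase, changed by -0.50 ± 0.12. CCBE1, a secreted protein of lymphatic vessel growth, changed by -0.51 ± 0.12 on its bright probe, while a dim second probe read 0.04. ASMTL changed by -0.49 ± 0.11 (other probes -0.40 and -0.34), EEIG2 by -0.49 ± 0.12, and the zinc finger gene ZNF565 by -0.48 ± 0.09 (other probe -0.29).

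**Figure D3:**
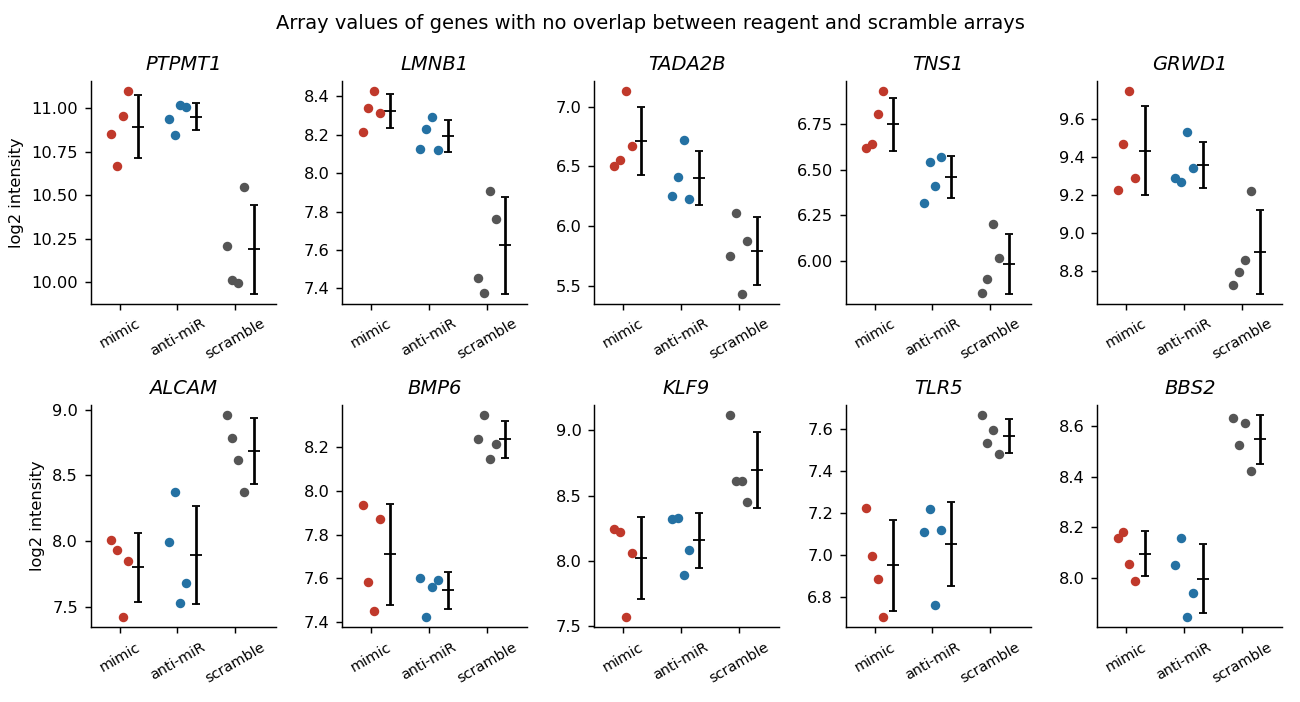
Log2 intensity (y axis) of each array for 5 genes that rose (top) and 5 that fell (bottom), in mimic (red), anti-miR (blue) and scramble (grey) cells; the bar beside each group is its mean ± SD of 4 arrays, and the y axes do not start at 0. In each panel the reagent arrays and the scramble arrays do not overlap.

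A last check treated the 8 reagent arrays as 1 group, so that any difference between mimic and anti-miR counts as error. Limma then called PTPMT1 and LMNB1 higher and BBS2 and BMP6 lower, each at an adjusted p = 0.0492. It also called CHST1, a sulfotransferase of keratan sulfate that is named here after its values were seen. The CHST1 probe was detected on 2 mimic, 2 anti-miR and 0 scramble arrays and so passed the detection filter only through the reagent arrays, and its mean signal there was no higher than the mean of the lowest signals detected on the scramble arrays, so no rise and no fold is read from it. Without scramble array 2, in the fit with a mean per reagent, the other 4 genes lost their call, at adjusted p = 0.0580 for PTPMT1 (change 0.67), LMNB1 (0.55) and BBS2 (-0.51) and 0.0607 for BMP6 (-0.57).

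Promoter bases of PTPMT1, LMNB1, BBS2 and BMP6 are shown because these genes were called in the fit of the reagents as 1 group as well. CHST1 is named only. Each line gives the 100 bases before the gene's start in GRCh38.p14, 5′ to 3′ on the gene's strand, at chr11:47565499-47565598 and chr5:126776523-126776622 (plus strand), chr16:56520025-56520124 (minus strand) and chr6:7725999-7726098 (plus strand). Capitals mark a match to the CCAAT box of NF-Y, read on the other strand, which was the only match to the 9 motifs searched in these stretches.
PTPMT1: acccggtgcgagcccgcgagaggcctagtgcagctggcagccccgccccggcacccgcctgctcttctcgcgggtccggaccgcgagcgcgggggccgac
LMNB1: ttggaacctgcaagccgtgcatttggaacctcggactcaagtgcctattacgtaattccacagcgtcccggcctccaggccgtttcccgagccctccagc
BBS2: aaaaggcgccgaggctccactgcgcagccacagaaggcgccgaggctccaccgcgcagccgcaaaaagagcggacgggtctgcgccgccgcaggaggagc
BMP6: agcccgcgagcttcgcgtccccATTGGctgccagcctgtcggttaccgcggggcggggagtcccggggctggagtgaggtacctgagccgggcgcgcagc

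Motifs were counted on both strands of the 250 bases before the start. Promoter sequences were at hand for 144 of the 171 higher genes, 203 of the 246 lower genes and 9466 of the 11835 genes tested. CCAAT was in 41% of the promoters of higher genes and 40.4% of those of lower genes, against 35.8% of all genes tested. The E2F motif TTTNNCGC was in 10.4% of higher and 6.9% of lower genes, against 9.14% of all tested, and the E-box CACGTG, the sequence that MYC binds, in 8.33% and 13.3%, against 9.12%. The FOXO motif GTAAACA was in 0 of the 144 promoters of higher genes and in 5 of the 203 of lower genes (2.46%), against 1.88%. CCACG, part of the endoplasmic reticulum stress element, was in 48.6% of higher and 51.2% of lower genes, against 44.7% of all tested. It can overlap the E-box by shared letters, so these counts are not independent. The AP-1 motif TGANTCA was in 0.694% and 3.45%, against 3.79%, and the cell cycle motif TTTGAA in 10.4% and 9.36%, against 8.73%. The sterol element CACNCCAC was in 1.39% of higher and 6.4% of lower genes, against 4.54%, and the ATF4 motif TGATGNAA in 0.694% and 0.493%, against 1.42%. A match is a description of letters and not a site.

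Genes of known pathways were then read from 31 lists that hold 819 symbols, 665 of them measured. All of the lists were written with earlier results of these data known, so their counts are descriptions and no independent evidence. Over all genes the median combined change was -0.01, and 3.52% were called, 1.44% higher and 2.08% lower. A list with a single call among the members measured is not read as differing from that share. Of 42 measured genes of the G1/S phase and DNA replication, 2 rose, 0 fell and 40 did not pass (4.76% called, near the 3.52% of all genes), with a median of 0.15 (0.27 for mimic minus scramble and 0.10 for anti-miR minus scramble). The members that passed were E2F2, an activating E2F factor (0.46 ± 0.12, adjusted p = 0.0497), and GINS3, a subunit of the replicative helicase (0.40 ± 0.10, adjusted p = 0.048). In both genes 1 anti-miR array, array 2, lay within the range of scramble. Of 36 genes of G2/M and mitosis 0 were called and the median was -0.03. Of 17 histone genes 1 fell, the linker histone H1-2 (-0.66 ± 0.15, adjusted p = 0.0357).

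Ribosome biogenesis genes linked to MYC, which make and process ribosomal RNA, counted 3 rises and 0 falls among 32 measured (9.38% called, against 3.52% of all genes), with 28 above and 4 below 0 and a median of 0.19 (mimic 0.25, anti-miR 0.14). Besides GRWD1, these were PPAN, a factor of the large subunit, and NIP7, which acts in its maturation. PPAN had 8.83, 8.60, 9.09 and 8.78 in mimic cells and 8.72, 8.55, 8.82 and 8.83 in anti-miR cells, against 8.30, 8.32, 8.31 and 8.55 in scramble cells, where array 4 stood above the others and about level with the lowest anti-miR array. PPAN changed by 0.41 ± 0.09 (adjusted p = 0.0359) and NIP7 by 0.34 ± 0.09 (adjusted p = 0.048). MYC itself stood at -0.20 with an adjusted p = 0.0956, and is given here after its value was seen. The 28 cytosolic ribosomal protein genes held 0 calls and a median of -0.05.

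FOXO-linked genes of growth restraint are induced when growth factor signalling is low. Of 25 measured, 5 fell and 0 rose (20% called, against 3.52% of all genes), 22 lay below 0, and the median was -0.19 (mimic -0.20, anti-miR -0.21). Like the others, this list was written with earlier results of these data known, so its count is no independent evidence of its direction. DEPTOR, an inhibitor of mTOR, had 6.36, 6.73, 6.01 and 6.27 with the mimic and 7.09, 7.66, 6.39 and 6.87 with the anti-miR, against 7.58, 7.57, 7.75 and 7.41 with scramble. Anti-miR array 2 lay among the scramble arrays, and the combined change was -0.91 ± 0.18 (adjusted p = 0.0285) with a second probe at -0.85. KLHL24, a substrate adaptor of ubiquitin ligases, had 7.41, 7.72, 6.83 and 7.32 with the mimic and 7.96, 8.26, 7.39 and 7.84 with the anti-miR, against 8.63, 8.50, 8.42 and 8.01 with scramble (-0.80 ± 0.17, adjusted p = 0.0333). The others were KLF9, described above, YPEL3, a small growth-suppressing protein (-0.62 ± 0.15, adjusted p = 0.0437), and BCL6, a transcriptional repressor named after its value was seen (-0.41, adjusted p = 0.0361). DEPTOR and YPEL3 were also called between the reagents, with mimic minus anti-miR at -0.66 and -0.80. TXNIP, the thioredoxin-binding inhibitor of glucose uptake, is given after its value was seen, as the largest change of the list, -1.06, and did not pass (adjusted p = 0.0678).

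**Figure D4:**
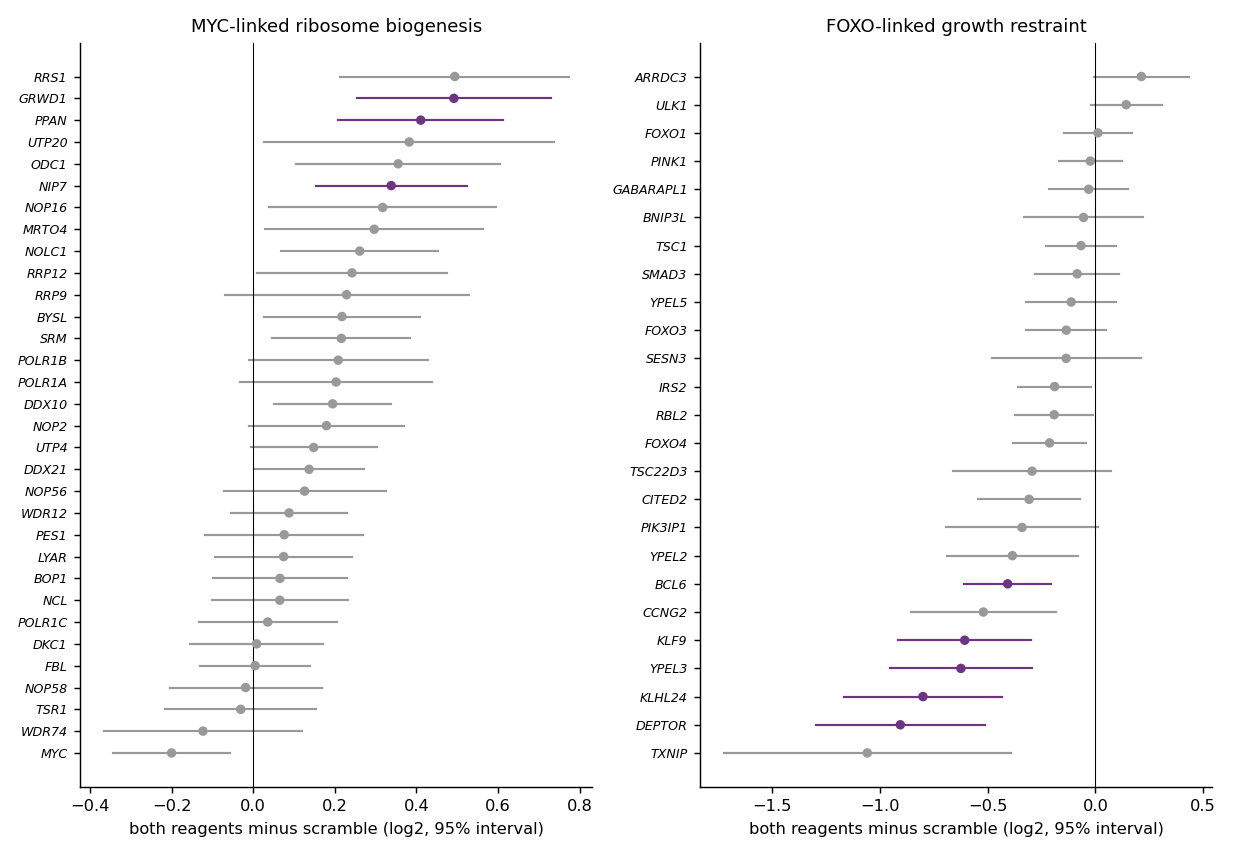
Change of both reagents minus scramble (x axis, log2) for every measured member of the MYC-linked ribosome biogenesis list (left, 32 genes) and the FOXO-linked growth restraint list (right, 25 genes), with limma's 95% intervals; purple marks called genes. On the left 28 of 32 members lie above 0, and on the right 22 of 25 lie below 0.

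Lists of protein folding and turnover held rises. Of 19 endoplasmic reticulum chaperones, 2 rose and 0 fell (10.5% called, against 3.52% of all genes), with a median of 0.18 (mimic 0.37, anti-miR 0.05). HSPA5, the chaperone BiP, had 10.02, 8.93, 9.47 and 10.25 in mimic cells and 8.37, 7.88, 8.69 and 8.57 in anti-miR cells, against 7.72, 8.32, 8.05 and 8.07 in scramble cells. Every mimic array was above every scramble array, while anti-miR array 2 was below 3 of the 4 scramble arrays. Its combined change of 0.98 ± 0.21 (1.97-fold, adjusted p = 0.0337) joins a change of 1.63 under the mimic and 0.34 under the anti-miR, and the reagents differed by 1.29 ± 0.25 (adjusted p = 0.00458). PDIA4, a disulfide isomerase of the same compartment, had 7.93, 7.76, 7.94 and 8.25 with the mimic and 7.61, 7.59, 7.70 and 7.94 with the anti-miR, against 7.22, 7.30, 7.15 and 7.55 with scramble. Its reagent and scramble arrays did not overlap (0.54 ± 0.10, adjusted p = 0.025), and mimic minus anti-miR was 0.26 ± 0.12 (adjusted p = 0.15).

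Of 22 heat shock chaperones 2 rose (9.09% called), the Hsp70 partners DNAJA1 (0.59 ± 0.12, adjusted p = 0.0303) and HSPH1 (0.43 ± 0.10, adjusted p = 0.0408). The list median was 0.21 (mimic 0.34, anti-miR 0.05). HSPH1 changed by 0.68 with the mimic and 0.17 with the anti-miR, and these differed (adjusted p = 0.0124). All 25 measured proteasome subunit genes lay above 0 in the combined contrast, with a median of 0.19 (mimic 0.31, anti-miR 0.06). Of these, 11 were called different between mimic and anti-miR, against 15% of all genes. The 2 that passed (8% called) were the regulatory ATPases PSMC4 (0.39 ± 0.09) and PSMC2 (0.30 ± 0.07). PSMC2 stood at 0.52 with the mimic and 0.07 with the anti-miR. Of 18 aminoacyl-tRNA synthetase genes 1 rose, MARS1, which charges methionine, at 11.35, 11.09, 11.18 and 11.28 in mimic cells and 10.90, 11.28, 11.03 and 10.85 in anti-miR cells, against 10.79, 10.58, 10.45 and 10.69 in scramble cells. All reagent arrays lay above scramble (0.50 ± 0.09, adjusted p = 0.025). Genes of amino acid stress under ATF4 held 0 calls among 27, with a median of 0.17 (mimic 0.30, anti-miR 0.03).

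The NRF2 antioxidant list had 2 rises and 0 falls among 16 genes (12.5% called, against 3.52% of all genes) and a median of 0.19 (mimic 0.34, anti-miR -0.02). NQO1, a quinone reductase, had 10.01, 9.67, 10.17 and 10.18 with the mimic and 9.24, 8.78, 9.35 and 9.38 with the anti-miR, against 8.83, 9.15, 8.85 and 9.02 with scramble, so that the anti-miR arrays straddled scramble. The combined call (0.63 ± 0.12, adjusted p = 0.0255) thus stood beside a difference between the reagents of 0.82 ± 0.14 (adjusted p = 0.00308). TXNRD1, thioredoxin reductase, was called too, at 0.76 with the mimic and -0.01 with the anti-miR. A second probe of TXNRD1 read 0.25, and the call was lost with the mean of its probes. Among 21 genes of sterol synthesis and uptake 2 rose (9.52% called), DHCR7, the enzyme of the last step to cholesterol (0.53 ± 0.13), and ACAT2, which joins acetyl units (0.49 ± 0.11), and both were higher with the mimic than with the anti-miR (0.57 ± 0.15 and 0.50 ± 0.12). The second probe of DHCR7 read 0.40 and a dim second probe of ACAT2 read 0.30. Both calls were lost with the mean of the gene's probes. Among 13 fatty acid genes ACSL4, which activates polyunsaturated fatty acids, fell (-0.52 ± 0.10, with -0.90 under the mimic and -0.15 under the anti-miR). A dim second probe of ACSL4 read -0.17, and the call was lost with the mean of its probes.

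Lists of signalling and of the cell's surroundings had few calls. Of 27 AP-1 and immediate early genes 1 rose, DUSP2, a nuclear phosphatase that switches off MAP kinases. It had 7.65, 7.54, 7.80 and 8.0 in mimic cells and 7.31, 7.49, 7.38 and 7.39 in anti-miR cells, against 6.96, 7.12, 7.05 and 7.01 in scramble cells, without overlap among the 3 groups (0.54 ± 0.09, adjusted p = 0.0173). Of 23 CDC42 and PAK genes 1 fell, WASL, the N-WASP protein through which CDC42 starts actin branching. WASL had 9.09, 9.33, 9.0 and 9.02 with the mimic and 9.48, 9.48, 9.26 and 9.48 with the anti-miR, against 9.73, 9.66, 9.77 and 9.58 with scramble, all reagent arrays below it (-0.42 ± 0.08, adjusted p = 0.025). In both genes the mimic arrays lay farther from scramble, and mimic minus anti-miR was 0.35 ± 0.10 for DUSP2 (adjusted p = 0.028) and -0.31 ± 0.09 for WASL (adjusted p = 0.0363).

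Of 25 matrix and adhesion genes 1 rose and 2 fell (12% called, against 3.52% of all genes), with a median of -0.13. TIMP3, an inhibitor of matrix proteases, rose (0.67 ± 0.12, adjusted p = 0.025), and the laminin chains LAMB2 (-0.37 ± 0.09) and LAMC1 (-0.34 ± 0.09) fell. LAMC1 was lower with both reagents (-0.25 with the mimic and -0.43 with the anti-miR), whereas LAMB2 stood at -0.72 with the mimic and -0.03 with the anti-miR. TIMP3 also stands on the list of 20 genes that the fusion EWS-FLI1, the driver of Ewing sarcoma, represses, where the axon guidance receptor gene ROBO1 fell. ROBO1 had 6.54, 6.78, 6.6 and 6.93 in mimic cells and 7.25, 7.24, 7.0 and 7.38 in anti-miR cells, against 7.41, 7.88, 7.55 and 7.60 in scramble cells, all reagent arrays below scramble (-0.65 ± 0.10, adjusted p = 0.0173). Of 27 genes the fusion activates 0 were called and the median was 0.01. Among 19 TGF-beta and BMP genes the receptor gene ACVR1 fell (-0.35 ± 0.09), with -0.63 under the mimic and -0.08 under the anti-miR.

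Reported targets of the miR-130 family are genes that its members are known to silence. Of 23 measured, 1 rose and 3 fell in the combined contrast (17.4% called, against 3.52% of all genes), with a median of -0.19, -0.26 under the mimic and -0.06 under the anti-miR. The falls were ACVR1, DEPTOR and RAB5A, an early endosome GTPase (-0.38 ± 0.09), and in each mimic was below anti-miR (-0.55, -0.66 and -0.50). The rise was E2F2, in which the reagents did not differ by more than their error (0.04 ± 0.14, 95% interval -0.26 to 0.33). Among 20 genes of microRNA processing and silencing 1 rose, CNOT7, a deadenylase of the CCR4-NOT complex (0.31 ± 0.07). On this brightest probe there was no overlap, and the 95% interval for mimic minus anti-miR was -0.08 to 0.27. The other detected probe of CNOT7 read 0.09, with -0.03 for anti-miR minus scramble, and the call was lost with the mean of its probes.

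Further lists had single calls. VEGFA, the growth factor of blood vessels, rose (0.37 ± 0.09) among 28 hypoxia and glycolysis genes, with 0.54 under the mimic and 0.20 under the anti-miR. A second probe of VEGFA read 0.29, and the call was lost with the mean of its probes. ZMAT3, a p53 target that binds RNA, fell (-0.38 ± 0.08) among 19 p53 targets and cell cycle inhibitors. Its other probes read -0.68 and -0.59, and on them anti-miR minus scramble was -0.21 and -0.01. PSME1, a proteasome activator subunit of antigen processing, fell (-0.34 ± 0.08) among 14 MHC class I genes, with -0.66 under the mimic and -0.02 under the anti-miR. A dim second probe of PSME1 read -0.12. Of 31 autophagy and lysosome genes 2 fell (6.45% called), PSAP, the precursor of the saposins (-0.46 ± 0.11), and UVRAG, a factor of autophagosome maturation (-0.33 ± 0.08). PSAP stood at -1.01 with the mimic and 0.10 with the anti-miR, while all reagent arrays of UVRAG lay below scramble on its brightest probe. A dim second probe of UVRAG read -0.07.

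Interferon-stimulated genes, a common response to introduced RNA, held no call in the combined contrast, where 0 of 27 passed. The median was -0.08, with -0.29 under the mimic and 0.22 under the anti-miR. Of the 27, 14 were called different between mimic and anti-miR, against 15% of all genes, and opposed changes cancel in the combined value. The 12 sensors of foreign RNA (median -0.04), 9 NF-kappaB and inflammatory genes (-0.08), 22 respiratory chain genes (-0.02) and 13 YAP and TEAD targets (0.08) also held 0 calls. A p that misses the threshold does not show that genes of these lists were unchanged. The lists and their medians lie side by side in the plot of list medians.

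**Figure D5:**
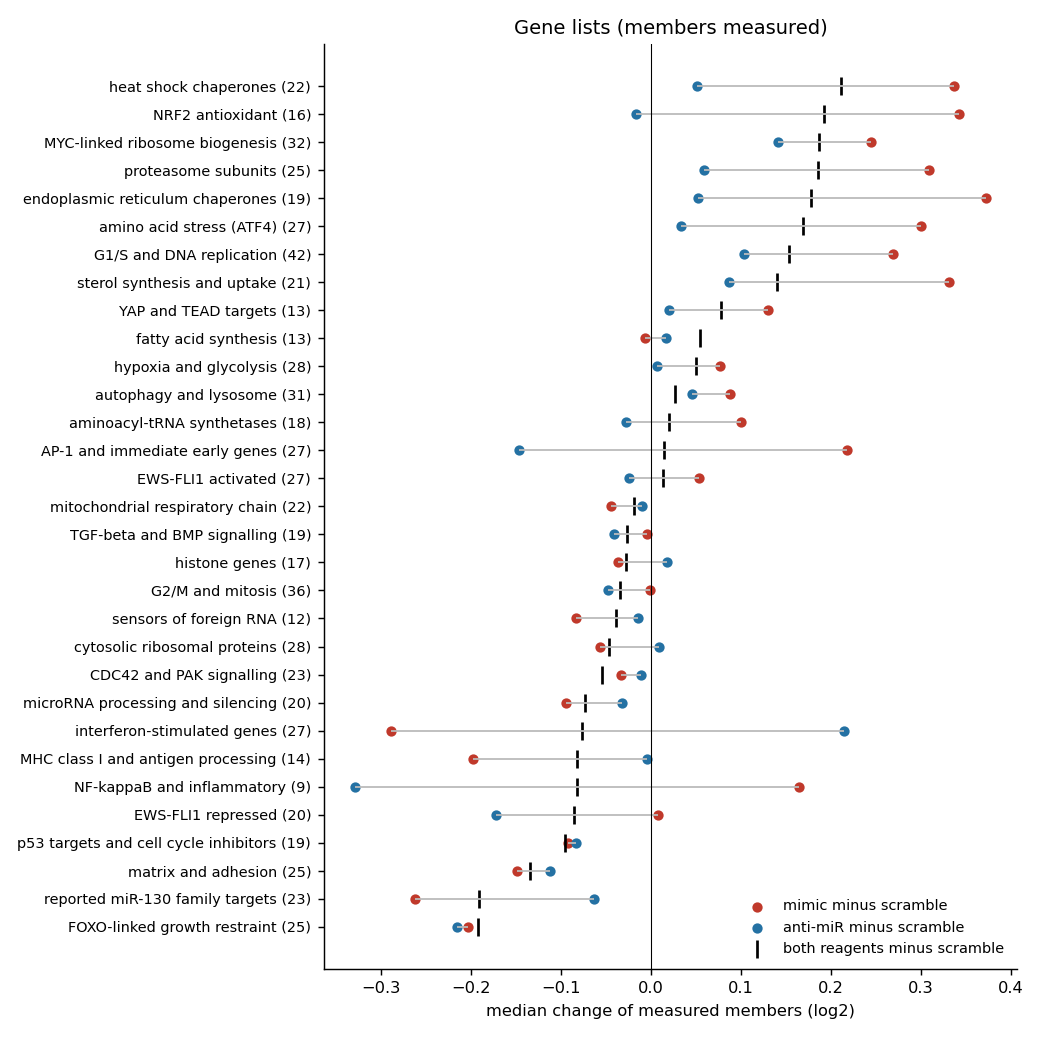
Median change (x axis, log2) of the measured members of each of 31 lists (y axis, number measured in brackets) for mimic minus scramble (red), anti-miR minus scramble (blue) and both reagents minus scramble (black bar); both colours share the scramble arrays. The FOXO-linked list has its 3 medians within -0.21 to -0.19, and the interferon list has its mimic and anti-miR medians at -0.29 and 0.22.

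In the proposed loop, ARHGAP1 and JUN moved apart under the reagents, and 0 of the 4 genes measured were called in the combined contrast. ARHGAP1, which switches CDC42 off, had 7.68, 8.46, 8.48 and 8.01 in mimic cells and 8.98, 8.97, 8.84 and 8.94 in anti-miR cells, against 8.74, 8.71, 8.74 and 8.76 in scramble cells. The mimic arrays lay below scramble and the anti-miR arrays above it, and the combined change was -0.19 ± 0.12 (adjusted p = 0.36). JUN, a subunit of AP-1, had 9.27, 9.11, 9.38 and 9.34 with the mimic and 7.67, 7.97, 7.80 and 7.74 with the anti-miR, against 8.83, 8.19, 8.29 and 8.27 with scramble, a combined change of 0.14 ± 0.11 (adjusted p = 0.477) beside a difference between reagents of 1.48 ± 0.13 (adjusted p = 0.000125). CDC42 gave -0.08 ± 0.12 on its brightest probe (adjusted p = 0.706) and 0.41 and -0.03 on its other detected probes. FOSL1, another AP-1 subunit, gave 0.14 ± 0.14 (adjusted p = 0.566). The probes of FOS and of the microRNA's own gene were detected on 0 arrays, and no probe was named for PAK1.

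JUN was also among 4 genes with opposed changes and no overlap among the 3 groups, chosen for that and therefore only described. They have the 2 largest differences between the reagents in each direction among such genes. NTS, the neuropeptide neurotensin, stood at 0.95 with the mimic and -0.33 with the anti-miR (combined 0.31). APOE, the lipid carrier, stood at -0.38 with the mimic and 0.69 with the anti-miR (combined 0.16). SCGB3A2, a secretoglobin that was detected on 4 anti-miR, 2 scramble and 0 mimic arrays, had measured values of 4.91, 4.85, 4.65 and 5.06 in mimic cells and 6.02, 5.56, 5.84 and 5.84 in anti-miR cells, against 5.17, 5.38, 5.15 and 5.10 in scramble cells.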

How the data were processed

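Per the labels' protocols, Trizol RNA of TC71 cells was column-cleaned and made into biotinylated cRNA for Illumina BeadChips. The deposited raw table holds, per the file headers, a mean signal intensity and a detection p-value for each of 47322 probes on each of 12 arrays; the array medians differed, so no scaling was seen. The authors' deposited normalized table holds intensity values, background-subtracted and with 1 median on every array, by a method not given in the sources used here; 159270 of them lie below 0, and it served as an alternative. Groups came from the sample labels, and 0 columns were unmatched.

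Raw intensities were corrected with limma's neqc procedure (normexp with background from the detection p-values, offset 16), quantile normalized and put on the log2 scale with limma 3.58.1 in R 4.3.3. Probes with a detection p under 0.05 on at least 4 arrays were kept, 20768 in all, of which 15758 had a gene name. The platform table named 1 gene for 30113 probes, several for 8 and none used here for 17201; 30092 were updated through RefSeq's gene table. The brightest kept probe stood for a gene, giving 11835 genes, 3112 of them with several probes. One mean per group was fitted over all arrays, so each SE pools the spread of the 3 groups. Adjusted p-values are Benjamini-Hochberg over all 11835 genes, and genes with an adjusted p under 0.05 are called. A fold against a group without detected arrays is a bound, set against the lowest detected signal of each of its arrays. The procedure was tested on simulated data. Named genes are the 14 rises and 14 falls called without overlap (probe detected on all scramble or all reagent arrays) that had the largest smaller change of the 2 reagents, up to 3 called members per list, the genes of the proposed loop, and 4 opposed genes; genes at the edge of the threshold and cell markers are given too, and further genes are marked as chosen after their values were seen. The comparison, the lists and the genes were chosen with earlier results of these data known. The labels and headers name no batch.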

Additional observations from a re-analysis of the deposited data

Results flagged for a closer look

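In 6 of 255 groups of 4 arrays tested, over the named genes and the 3 groups of each, 1 array stood apart from the others by Dixon's ratio; chance marks about 1 in 20 groups. They were H1-2 on mimic array 3 (8.95, the nearest being 9.47), TXNRD1 on mimic array 2 (10.7, nearest 11.1), WASL on anti-miR array 3 (9.26, nearest 9.48), CEP19 on anti-miR array 3 (11.6, nearest 11.8), PPAN on scramble array 4 (8.55, nearest 8.32) and JUN on scramble array 1 (8.83, nearest 8.29).

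In 29 of the named genes limma called mimic and anti-miR different, so the combined value averages unlike changes (log2, mimic minus anti-miR). Among genes called higher in the combined contrast, the mimic stood above the anti-miR in HSPA5 by 1.29, in NQO1 by 0.82, in TXNRD1 by 0.78, in TIMP3 by 0.67, in DHCR7 by 0.57, in TFAM by 0.53, in HSPH1 by 0.51, in ACAT2 by 0.50, in PSMC2 by 0.46, in DUSP2 by 0.35 and in VEGFA by 0.34. Among genes called lower, mimic minus anti-miR was -1.12 in PSAP, -0.80 in YPEL3, -0.75 in ACSL4, -0.69 in LAMB2, -0.69 in TPP1, -0.66 in DEPTOR, -0.64 in OPLAH, -0.64 in PSME1, -0.55 in ACVR1, -0.52 in AHI1, -0.51 in ROBO1, -0.50 in RAB5A and -0.31 in WASL. Of the genes not called in the combined contrast, it was 1.48 in JUN, 1.28 in NTS, -1.07 in APOE, -0.94 in SCGB3A2 and -0.77 in ARHGAP1. Each reagent's own difference from scramble shares the scramble arrays with the other's, whereas the values of these differences use none of them. The spread in their tests is pooled over the 3 groups.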

How the results depend on the processing

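With each array left out in turn, genes called higher numbered 0 to 418 and lower 0 to 451 (171 and 246 with all arrays), those without overlap 0 to 224 and 0 to 248 (58 and 86), and mimic minus anti-miR 877 to 1848 (1777). Without background correction 451 genes were higher and 544 lower, with normexp on intensities alone (offset 50) 451 and 545, with array quality weights 434 and 505, with an intensity trend 469 and 541, and with detection on all 12 arrays 309 and 394. Fewer were called without a filter (106 and 133), from the deposited normalized table (84 and 104, without overlap 37 and 55) and with median scaling (50 and 116, without overlap 20 and 50), where the share of higher calls was 30.1%, against 41.0% in the main setting, and the median of all genes -0.05. With the 8 reagent arrays as 1 group 3 were higher and 2 lower, and these did not overlap (3 and 2). At an adjusted p under 0.01 there were 0 and 0 without overlap. The mean of a gene's probes gave 161 and 199 calls.

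The labels do not say whether the replicate numbers pair the samples, and the main fit used no pairs. Deviations of same-numbered arrays correlated at -0.19 to 0.19. Between mimic and anti-miR, same-numbered arrays gave 0.07, 0.13, 0.19 and 0.03, and differently numbered arrays -0.12 to 0.04. Between scramble and either reagent, same-numbered arrays gave -0.19 to 0.07 and differently numbered arrays -0.20 to 0.26. A pairing was not tested. A fit with the replicate number as a block called 184 higher and 265 lower, 358 of them shared with the main 417.

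Of 78 called genes (those named apart from SEC61A1, EFEMP2 and BCL6), 4 (PTPMT1, LMNB1, BBS2 and BMP6) kept their call in every setting that used all arrays at the 0.05 threshold, and 0 changed sign in any. CDC42, not called, turned to 0.10 with the mean of its probes and, with single arrays left out, ran from -0.15 to 0.016, positive only without scramble array 4 (adjusted p = 0.643 and 0.952). The cause of these differences was not tested. Arrays limit the precision to 4 per group, and probes near background have only bounds.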

Other observations

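Further groups were listed after the called genes had been seen, so their counts describe those genes and support nothing, also where they exceed the 1.44% of all genes called higher or the 2.08% called lower. Of 56 measured genes of the primary cilium and centriolar satellites 9 fell, 0 rose, and the median change was -0.12 (mimic -0.25, anti-miR -0.03). Besides BBS2, these included TMEM17, a protein of the ciliary transition zone, at 11.35 to 11.45 in mimic cells and 11.44 to 11.73 in anti-miR cells, against 11.76 to 12.15 in scramble cells. Its reagent and scramble arrays did not overlap (-0.47 ± 0.08, limma adjusted p = 0.025), and a dim second probe read -0.24. AHI1, of the same zone, changed by -0.44 ± 0.10, more with the mimic (-0.70) than with the anti-miR (-0.18). CEP19, a centriolar protein, changed by -0.40 ± 0.09 on its brightest probe, with -0.07 and 0.00 on its other probes. Lysosomal enzyme genes counted 5 falls and 0 rises among 41, led by the acid lipase LIPA (-0.44 ± 0.09), the peptidases TPP1 (-0.40 ± 0.09) and PRCP (-0.38 ± 0.08), and PSAP. PRCP lay below scramble on all 8 reagent arrays, whereas TPP1 stood at -0.75 with the mimic and -0.05 with the anti-miR.

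Lists of RNA processing and of mitochondrial genes held more rises than falls. Of 57 further genes of pre-rRNA processing 9 rose and 0 fell, with 49 above 0 and a median of 0.13 (mimic 0.18, anti-miR 0.14). They included NOL10, the helicase DDX31 (0.41 ± 0.07, no overlap, second probe 0.15), RRP1 (0.48 ± 0.11) and RRP36 (0.44 ± 0.11). Of 64 hnRNP and splicing genes 9 rose and 0 fell (median 0.14). The rises included the helicase DHX9 (0.53 ± 0.12, other probes 0.18 and 0.35) and the mRNA export adaptor ALYREF (0.45 ± 0.11, other probe 0.05). Both of these lost their call with the mean of their probes. The hnRNP genes SYNCRIP (0.48 ± 0.10) and HNRNPAB (0.43 ± 0.11, other probes 0.51 and 0.56) rose too. Of 61 mitochondrial genes 10 rose and 2 fell (median 0.09). They were listed for import and translation, but the list also holds PTPMT1 and TFAM, which act elsewhere in mitochondria. PTPMT1 and PDF led the rises, followed by the ribosome assembly GTPase MTG1 (0.70 ± 0.16) and TFAM, which packs mitochondrial DNA (0.45 ± 0.08). As stated above, the test of PDF is not read as support. MTG1 was near level between the reagents (0.73 with the mimic and 0.67 with the anti-miR), while TFAM stood at 0.72 with the mimic and 0.19 with the anti-miR.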
